A study of Homo sapiens with 4 samples.

Results

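The genes described here are 48 components and partners of the spliceosome: the proteins of the U1, U2, U5 and U4/U6 small nuclear ribonucleoproteins (snRNPs), the Sm and LSm proteins, the SF3A and SF3B subunits, U2AF, PRPF19, 4 SR proteins, 5 heterogeneous nuclear ribonucleoproteins (hnRNPs) and ERH. They were taken by gene symbol from a list whose rule does not use the measured values, though it was chosen with earlier results of these data known. All 48 were found among the 18885 genes in the expression table and among the 16937 genes that were tested. The libraries came from MV4-11, a human acute myeloid leukemia line with monocytic features. There were 2 libraries of the control group, called sh-NC in the study, and 2 libraries of cells with an shRNA against ANP32B, a nuclear histone chaperone whose knockdown effect on gene expression was the question of the experiment. The sample labels state no shRNA for the control cells. The knockdown columns of the table carry the mark S3, and whether this stands for 1 hairpin or for cells from more than 1 hairpin was not stated, so effects of ANP32B loss and of a hairpin on other genes cannot be told apart. Levels are in TPM, a share of the reads corrected for gene length, so changes are relative to the rest of the RNA in each library. The files hold no read numbers, so the depth and the counting error are unknown.

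The spliceosome removes introns from pre-mRNA. U1 snRNP binds the start of the intron and U2AF and U2 snRNP its end and branch point, after which the U4/U6.U5 tri-snRNP joins and the complex is rearranged into its active form with the help of the PRP19 complex. Sm proteins form a ring around the U1, U2, U4 and U5 snRNAs, LSm proteins form a similar ring on U6, and SR proteins and hnRNPs bind the pre-mRNA itself and shift which sites are used. Splicing factor genes, among them SF3B1, SRSF2 and U2AF1, are frequent sites of mutation in myeloid cancers. The values below are gene levels and do not show which isoforms were made.

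ANP32B itself was at 358 and 364 TPM in sh-NC and at 54.1 and 49.3 TPM in sh-ANP32B, 14.3% of the control mean. All 7 genes listed as marks of MV4-11 cells were present, and 5 of them were called in limma. PTPRC, SPI1 and CD33 rose, with log2 fold changes of 1.15, 0.51 and 0.40, HOXA10 and MEIS1 fell, at -0.64 and -0.61, and HOXA9 (184 and 186 TPM in sh-NC, 175 and 176 TPM in sh-ANP32B) and FLT3 were not called. Other markers moved with the groups as well. The summed level of 7 monocyte maturation markers was 1248 and 1228 TPM in sh-NC and 7864 and 7819.9 TPM in sh-ANP32B, with 6 of 7 called higher and CD14 not listed. The sum of 5 proliferation genes was 1156 and 1166 TPM in sh-NC and 547 and 549 TPM in sh-ANP32B, with 5 of 5 called lower. The 3 CD3 chains, MS4A1, and the 3 erythroid and 4 epithelial or fibroblast markers were not found in the table, where the lowest mean of a listed gene was 0.5 TPM. CD2 was at 0.521 and 0.442 TPM in sh-NC and 3.62 and 3.63 TPM in sh-ANP32B, and the 3 listed B cell markers summed to between 4.10 and 11.5 TPM in every library. The part of maturation and of proliferation in the results on splicing genes was not tested. In bulk RNA, fewer cells of a kind and less RNA per cell cannot be told apart.

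Most of the 48 genes were lower in the knockdown libraries. Their summed level was 10131 and 10141 TPM in sh-NC and 7418 and 7422 TPM in sh-ANP32B, or 73.2% of the control mean. In limma's test on log2(TPM + 1), at a Benjamini-Hochberg adjusted p below 0.05 over all genes tested, 40 genes fell, SF3B1 rose, and 7 (SNRPB2, LSM4, LSM8, SF3B4, PRPF6, PRPF3 and PRPF31) were not called. Among all genes tested, 19.7% fell and 26.0% rose by the same rule, against 83.3% of these genes that fell. With a log2 fold change beyond 0.5 as well, 19 fell and 1 rose, where 10.1% of all genes tested fell and 17.9% rose. The knockdown libraries lay entirely below the control libraries for 44 genes, entirely above them for SF3B1, SNRPB2 and PRPF3, and among them for PRPF31. For all genes tested the corresponding shares were 32.1% below and 42.5% above. The median log2 fold change was -0.43 over the 48 genes, with a range from -1.13 to 0.51, and 0.08 over all genes tested, whose middle 50% lay between -0.26 and 0.45.

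**Figure D1:**
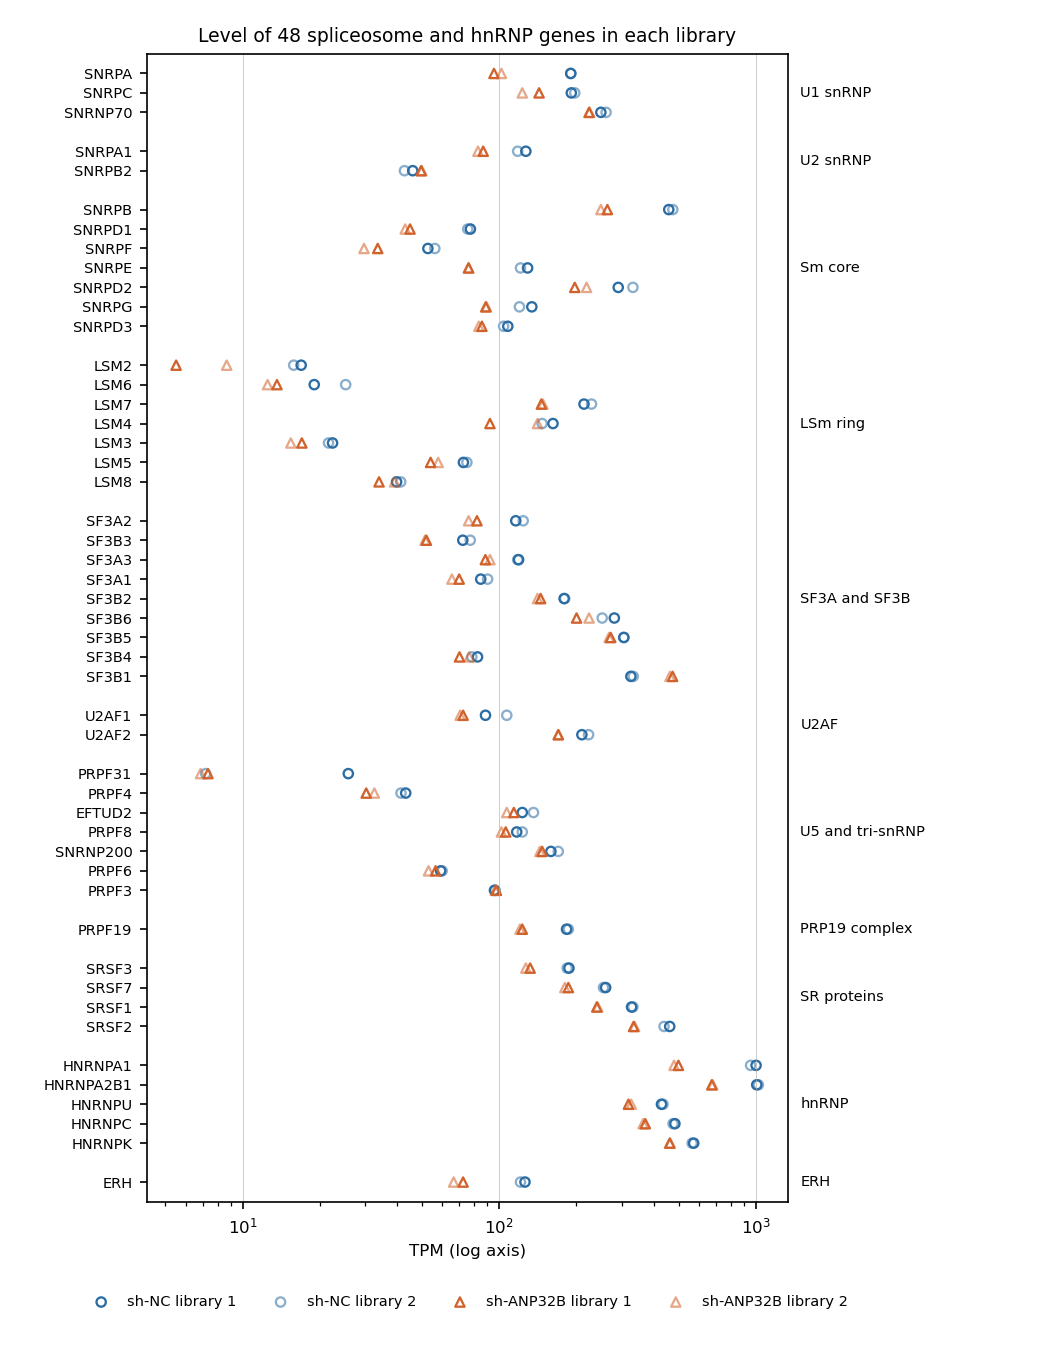
Level of each of the 48 genes in TPM (log axis) in the 2 sh-NC libraries (circles) and the 2 sh-ANP32B libraries (triangles), grouped by role and ordered by fold change within a role. The triangles lie to the left of the circles in 44 rows, and SF3B1 shows the widest gap in the other direction.

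Libraries of the same group lay close together. The median absolute log2 difference between them over the 48 genes was 0.06 in sh-NC and 0.055 in sh-ANP32B. In 6 genes it passed 0.2 in either group, namely PRPF31, LSM4, LSM2, LSM6, U2AF1 and SNRPC, and these values are given with the genes. The study states in general that its experiments were repeated independently, but neither it nor the labels say that these 2 libraries per group came from separate cultures, so the p-values measure the spread between these libraries, which may be technical. With 2 libraries against 2, an exact two-sided permutation test of a single gene could not give a p below 0.33, and the limma p-values rest on a spread shared over all genes.

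The Sm core was the role with the most members beyond the fold limit. All 7 of its genes fell, 6 of them beyond 0.5, their median log2 fold change was -0.71, and their summed level went from 1251 and 1283 TPM to 790.2 and 789 TPM, or 62.3% of the control mean. SNRPB, which encodes Sm B/B′ (ENSG00000125835; chr20:2461634-2470853, minus strand), had the highest level of the ring. It was at 458 and 475 TPM in sh-NC and 264 and 249 TPM in sh-ANP32B, a log2 fold change of -0.86 ± 0.045 (SE) with an adjusted p of 0.000169 in limma. Both knockdown libraries lay far below both controls. SNRPD1 (Sm D1; chr18:21612314-21633524) was at 77.2 and 75.4 TPM against 44.9 and 43.0 TPM, with a log2 fold change of -0.78. SNRPD1 and ERH are also in the heatmap of MYC signaling genes that the study drew for these cells. The libraries used here are those of the study, so the direction of none of the 48 genes is evidence independent of its results. SNRPF (Sm F) went from 52.7 and 56.1 TPM to 33.6 and 29.7 TPM and SNRPE (Sm E) from 129 and 121 TPM to 76.0 and 75.8 TPM, with log2 fold changes of -0.77 and -0.71. SNRPD2 (Sm D2) was at 291 and 332 TPM in sh-NC and 197 and 219 TPM in sh-ANP32B, at -0.58. In each of the 7 ring genes both knockdown libraries lay below both controls, which held for 32.1% of all genes tested. SNRPG (Sm G) was just past the fold limit at -0.51, with 134 and 119.9 TPM in sh-NC and 88.6 and 89.2 TPM in sh-ANP32B. SNRPD3 (Sm D3) fell least, from 108 and 104 TPM to 85.6 and 83.3 TPM, a log2 fold change of -0.33 ± 0.047 (SE) with an adjusted p of 0.00338 in limma. Not all ring genes kept their proportions. The TPM ratio of SNRPB to SNRPD3, the 2 extremes of the ring, was 4.24 and 4.56 in the controls and 3.09 and 2.99 after knockdown. These 2 genes share 256 and 548 exonic bases with other genes on the same strand. The ratio of SNRPB to SNRPF was 8.69 and 8.46 against 7.87 and 8.38. For SNRPD1 to SNRPD2 it was 0.265 and 0.227 against 0.227 and 0.197, and for SNRPF to SNRPE 0.408 and 0.465 against 0.442 and 0.392. SNRPN, which is not one of the 48 genes and encodes the Sm N protein that can take the place of Sm B/B′, went the other way, from 117 and 118 TPM to 168 and 167 TPM (log2 fold change 0.51; adjusted p 0.000424 in limma).

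Of the proteins particular to U1 snRNP, all 3 fell, but by unequal amounts. SNRPA, a U1 protein that binds a stem-loop of U1 snRNA (ENSG00000077312; chr19:40750637-40765389, plus strand), was at 190.0 and 190.2 TPM in sh-NC and 95.4 and 102 TPM in sh-ANP32B. Its mean was 190.1 ± 0.103 TPM (SD, n = 2) in sh-NC and 98.9 ± 4.88 TPM (SD, n = 2) in sh-ANP32B, and its log2 fold change was -0.94 ± 0.049 (SE) with an adjusted p of 0.00017 in limma. SNRPC, the U1 protein at the 5′ splice site, was at 191 and 197 TPM against 143 and 123 TPM, at -0.55, and its 2 knockdown libraries differed by 0.21 on the log2 scale. SNRNP70, the U1-70K protein, went from 249 and 261 TPM to 224 and 225 TPM, and its log2 fold change of -0.18 had an adjusted p of 0.0159 in limma. This call was lost after quantile normalization (log2 fold change -0.10) and without sh-NC replicate 2 or sh-ANP32B replicate 1. The TPM ratio of SNRPA to SNRNP70 was 0.763 and 0.730 in the controls and 0.426 and 0.454 after knockdown.

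The 2 proteins particular to U2 snRNP, which bind U2 snRNA as a pair, moved apart. SNRPA1 (chr15:101281510-101295282) fell from 127 and 118 TPM to 86.6 and 82.6 TPM, a log2 fold change of -0.53 with an adjusted p of 0.00121 in limma. SNRPB2 (chr20:16729961-16742564) was at 46.0 and 42.7 TPM in sh-NC and 49.6 and 49.9 TPM in sh-ANP32B, a log2 fold change of 0.16 that was not called (adjusted p 0.080 in limma). The TPM ratio of SNRPA1 to SNRPB2 was 2.76 in both sh-NC libraries and 1.75 and 1.66 in sh-ANP32B.

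SF3B1 was the one gene of the 48 that rose. It encodes the large SF3B subunit that holds the branch point of the intron in U2 snRNP (ENSG00000115524; chr2:197388515-197435079, minus strand). Its level was 326 and 333 TPM in sh-NC and 474 and 463 TPM in sh-ANP32B, with no overlap and little spread in either group. The mean was 329 ± 4.85 TPM (SD, n = 2) in sh-NC and 468 ± 7.97 TPM (SD, n = 2) in sh-ANP32B, 142% of the control, and the log2 fold change was 0.51 ± 0.036 (SE) with an adjusted p of 0.000334 in limma. It stayed called in all the alternative fits, but its log2 fold change lay inside the fold limit under median-of-ratios scaling (0.41) and without replicate 1 of either group (0.49 in both fits). The other SF3A and SF3B genes had negative fold changes, and 7 of those 8 were called lower. SF3A2, which contacts U2 snRNA, was the lowest at -0.59, from 116 and 124 TPM to 81.9 and 76.0 TPM. SF3B3, a scaffold of SF3B, fell from 72.1 and 77.1 TPM to 52.0 and 51.4 TPM, at -0.52. SF3B4, which binds RNA near the branch point, was at 82.3 and 78.2 TPM against 70.0 and 76.4 TPM and was not called (log2 fold change -0.13; adjusted p 0.138 in limma). The remaining 5, SF3A1, SF3A3, SF3B2, SF3B5 and SF3B6, fell with log2 fold changes between -0.39 and -0.18. The TPM ratio of SF3B1 to SF3B2 was 1.82 and 1.85 in the controls and 3.28 and 3.29 after knockdown, and that of SF3B1 to SF3B3 was 4.52 and 4.32 against 9.12 and 9.0. Because SF3B1 has a high level, the summed level of the 9 genes was 93.2% of the control mean.

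**Figure D2:**
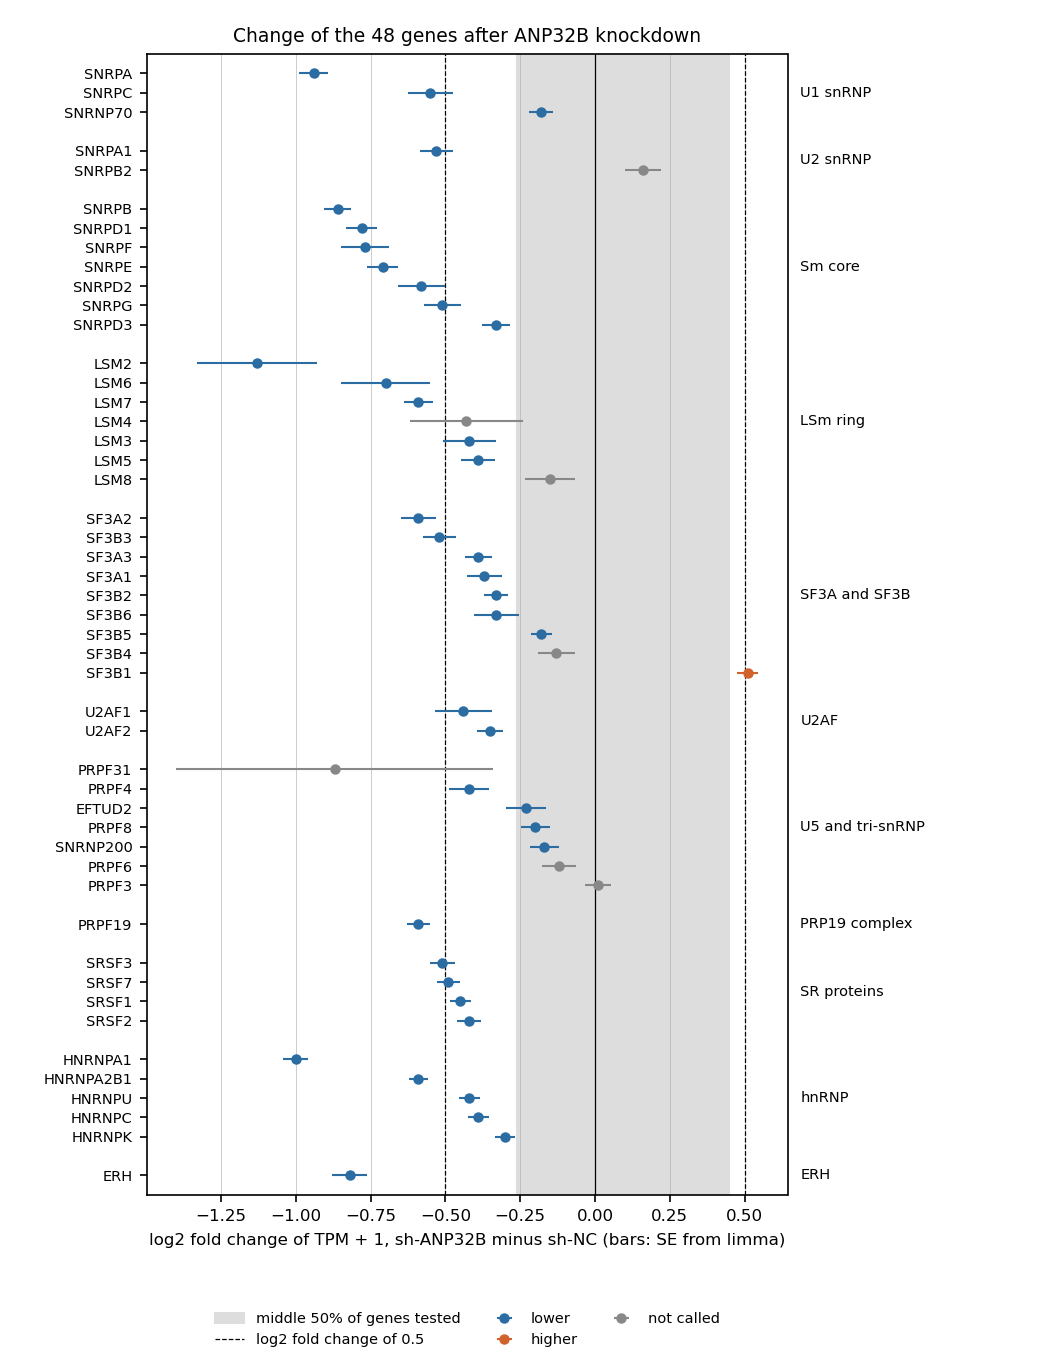
Log2 fold change of TPM + 1 (sh-ANP32B minus sh-NC) with its SE from limma for each of the 48 genes, with the middle 50% of all genes tested in gray and dashed lines at the fold limit of 0.5. The Sm core and hnRNP genes lie to the left of the gray band, SF3B1 lies to its right at 0.51, and PRPF31, LSM4 and LSM2 have the longest error bars.

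U2AF recognises the polypyrimidine tract and the AG at the end of the intron. Its small subunit U2AF1 was at 88.4 and 107 TPM in sh-NC and 72.3 and 70.4 TPM in sh-ANP32B, and the control libraries differed by 0.28 on the log2 scale. Its log2 fold change was -0.44 with an adjusted p of 0.0136 in limma. The hg38 build holds a near-identical copy of U2AF1 (U2AF1L5), which was not listed, and how reads were divided between the copies is not given in the sources used here. The large subunit U2AF2 fell from 210.0 and 223 TPM to 169.9 and 170.0 TPM, at -0.35.

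The LSm ring genes all had negative fold changes, and 5 of the 7 were called. LSM2, LSM4 and LSM6 were among the 6 genes with uneven libraries. LSM2 (chr6:31797396-31806966, in the MHC region) had the lowest fold change of the 48 genes at -1.13 ± 0.20 (SE), with an adjusted p of 0.00719 in limma. Its level was 16.9 and 15.8 TPM in sh-NC and 5.50 and 8.66 TPM in sh-ANP32B, and leaving out single libraries moved the log2 fold change between -1.41 and -0.84. LSM7 was steadier, at 214 and 229 TPM against 146 and 148 TPM (log2 fold change -0.59). LSM6 was at 19.0 and 25.2 TPM against 13.6 and 12.5 TPM, at -0.70 with an adjusted p of 0.0125 in limma. Neither LSM6 nor LSM7 had overlapping groups, where 32.1% of all genes tested lay below the controls in this way. LSM4 (chr19:18306236-18323112) was at 162 and 147 TPM in sh-NC and 92.0 and 141 TPM in sh-ANP32B. Its first knockdown library lay far below the controls and its second just below them, and the log2 fold change of -0.43 was not called (adjusted p 0.118 in limma), but reached -0.74 with an adjusted p of 0.00196 without sh-ANP32B replicate 2 and shrank to -0.13 with an adjusted p of 0.224 without sh-ANP32B replicate 1. LSM8, the subunit that marks the nuclear ring from the cytoplasmic one, was at 39.8 and 41.3 TPM against 34.0 and 39.1 TPM, at -0.15, and was not called. LSM3 and LSM5 fell with log2 fold changes of -0.42 and -0.39. LSM1, which replaces LSM8 in the cytoplasmic ring that acts in mRNA decay and is not one of the 48 genes, rose from 41.3 and 35.4 TPM to 49.3 and 49.4 TPM (log2 fold change 0.36; adjusted p 0.019 in limma).

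Of the 7 genes of U5 snRNP and the tri-snRNP among the 48, 4 fell, none of them beyond 0.5, and the median log2 fold change was -0.20. PRPF8, which lines the catalytic center, fell from 117 and 123 TPM to 106 and 102 TPM (log2 fold change -0.20). SNRNP200, the helicase that unwinds U4 from U6, went from 159 and 169.9 TPM to 147 and 144 TPM, and EFTUD2, the U5 GTPase, from 123 and 136 TPM to 114 and 107 TPM, with log2 fold changes of -0.17 and -0.23. These 3 calls were lost when sh-NC replicate 2 or sh-ANP32B replicate 2 was left out, and that of SNRNP200 also without sh-ANP32B replicate 1. PRPF4, a U4/U6 protein, had the lowest call of the role at -0.42, from 43.2 and 41.4 TPM to 30.3 and 32.6 TPM. Its direct partner PRPF3 was at 95.8 and 96.4 TPM in sh-NC and 97.5 and 96.5 TPM in sh-ANP32B, a log2 fold change of 0.01 ± 0.043 (SE), and the TPM ratio of PRPF4 to PRPF3 was 0.450 and 0.430 against 0.311 and 0.338. PRPF6, which bridges U5 and U4/U6, was at 59.1 and 59.9 TPM against 56.5 and 53.0 TPM and was not called (log2 fold change -0.12). PRPF31, another U4/U6 protein (chr19:54115410-54131719), was at 25.8 TPM in 1 sh-NC library, 7.17 TPM in the other, and 7.32 and 6.85 TPM in sh-ANP32B. Only the first control library stood apart, so the log2 fold change of -0.87 ± 0.53 (SE) rested on it: it was -0.02 without sh-NC replicate 1 and -1.73 without sh-NC replicate 2. Exons of PRPF31 share 589 bases with the opposite-strand PRPF31-AS1 and 248 bases with TFPT, and whether strand was used in counting is not given in the sources used here.

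**Figure D3:**
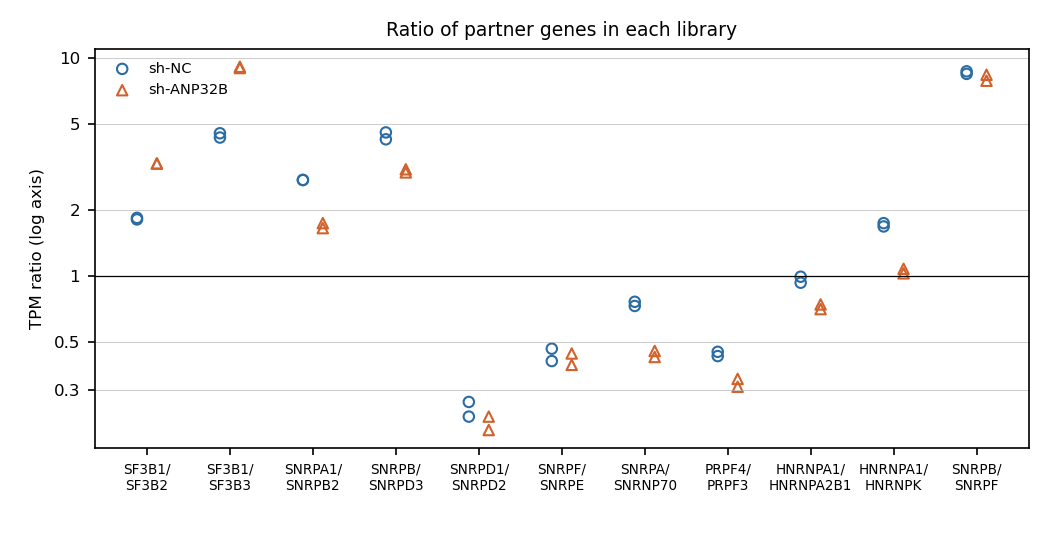
TPM ratio (log axis) of 11 pairs of genes whose products act in the same complex or family, in each sh-NC library (circles) and sh-ANP32B library (triangles). The ratios of SF3B1 to SF3B2 and to SF3B3 are higher in both knockdown libraries, those of SNRPA1 to SNRPB2 and SNRPA to SNRNP70 are lower, and those of SNRPF to SNRPE overlap.

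PRPF19, a ubiquitin ligase and the core of the complex named after it, fell from 183 and 186 TPM to 123 and 120.5 TPM, a log2 fold change of -0.59 ± 0.040 (SE) with an adjusted p of 0.000301 in limma. The 4 SR proteins, which bind exonic enhancers, fell within a narrow range. SRSF3 was the lowest at -0.51, from 187 and 184 TPM to 132 and 127 TPM, and SRSF7 lay just inside the fold limit at -0.49, from 259.9 and 255 TPM to 186 and 180.2 TPM. SRSF1 followed at -0.45, from 328 and 332 TPM to 240.1 and 242 TPM. SRSF2, whose level was the highest of the 4 at 462 and 439 TPM in sh-NC and 334 and 337 TPM in sh-ANP32B, had a log2 fold change of -0.42. In each of these genes both knockdown libraries lay below both controls, as in 32.1% of all genes tested.

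The hnRNPs carried the largest drop in TPM. The 5 genes summed to 3499 and 3455 TPM in sh-NC and 2325 and 2314 TPM in sh-ANP32B, 66.7% of the control mean, and all 5 were called lower. HNRNPA1, which represses exon use and shuttles mRNA (ENSG00000135486; chr12:54280193-54287088, plus strand), was at 1003 and 955 TPM in sh-NC and 499.6 and 480.1 TPM in sh-ANP32B. Both groups were tight, at 979 ± 33.7 TPM (SD, n = 2) and 489.9 ± 13.8 TPM (SD, n = 2), and the log2 fold change was -1.0 ± 0.042 (SE) with an adjusted p of 0.000109 in limma. The annotation names 74 pseudogenes of HNRNPA1, and how the authors counted reads that fit several of them is not given in the sources used here, so its level is uncertain. HNRNPA2B1, the closest relative of HNRNPA1 in the group and without a named pseudogene, fell from 1009 and 1024 TPM to 674 and 679.7 TPM, at -0.59 with an adjusted p of 0.000195 in limma. Its exons share 1207 bases with NFE2L3 and 368 bases with CBX3, both on the opposite strand. NFE2L3 had a log2 fold change of 0.35 and CBX3 of -0.28, and whether strand was used in counting is unknown. HNRNPU, a nuclear matrix protein, HNRNPC, which binds uridine tracts, and HNRNPK, which binds cytosine-rich stretches, fell with log2 fold changes of -0.42, -0.39 and -0.30. HNRNPK, the smallest of these changes, went from 573 and 565 TPM to 462 and 464 TPM. The TPM ratio of HNRNPA1 to HNRNPA2B1 was 0.994 and 0.933 in the controls and 0.742 and 0.706 after knockdown. ERH, a small conserved protein that associates with Sm proteins (chr14:69380128-69398299), fell from 126 and 121 TPM to 72.3 and 66.4 TPM, a log2 fold change of -0.82 ± 0.059 (SE) with an adjusted p of 0.000348 in limma.

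The other proteins of the splicing machinery moved less uniformly. Of 147 further genes, 144 were in the table and tested (SRSF12, HNRNPLL and U2AF1L5 were not listed). In limma at the same adjusted p, 73 fell (50.7%), 13 rose and 58 were not called, with a median log2 fold change of -0.22. Among all genes tested, 19.7% fell and 26.0% rose by this rule. Beyond 0.5, 30 fell (20.8%) and 3 rose, against 10.1% and 17.9% of all genes tested. Of the other hnRNPs and related proteins 17 of 21 fell, 9 of them beyond 0.5. HNRNPAB was the lowest at -0.88, with HNRNPA3, HNRNPD, HNRNPR, RALY, PTBP1, HNRNPL, PCBP2 and HNRNPA0 between -0.66 and -0.50, whereas PTBP2, a neural relative of PTBP1, had the highest value at 0.33 and was not called. In the same role HNRNPH2 rose by 0.25 on the log2 scale. Of the U4/U6 and tri-snRNP proteins 9 of 14 fell, 6 of them beyond 0.5: TXNL4A, a U5 protein, at -0.83, SNRNP40, USP39, SNU13, SART3 and PPIH, and PRPF18 rose by 0.40. Of the proteins that assemble snRNPs 9 of 17 fell, with GEMIN5, GEMIN4, GEMIN2 and DDX20 of the SMN complex between -0.65 and -0.55, and PRMT5, which methylates Sm proteins, at -0.49. SMN1 had the lowest value of that role, at 10.4 and 8.32 TPM against 3.09 and 6.75 TPM (log2 fold change -0.87), but was not called, GEMIN7 was the highest at 0.38 without a call, and SMN1 shares nearly all its sequence with SMN2.

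In the exon junction and export role, 8 of 12 genes fell, with ALYREF, an mRNA export adaptor, at -0.83, and MAGOH, RNPS1 and SRRM2 also beyond 0.5. ACIN1 had the highest value there, 0.06, without a call. Of the U2-associated proteins 8 of 15 fell, with CHERP at -0.61 and PHF5A, an SF3B subunit, at -0.52 beyond the limit, and 2 rose, RBM5 by 0.22 and RBM39 by 0.14. Of 25 proteins of the PRP19 complex and of spliceosome activation 10 fell and 1 rose, from BUD13 at -0.78 to CDC40 at 0.26. Of the other Sm and LSm proteins 4 of 7 fell and 3 rose, from LSM11, a protein of U7 snRNP, at -0.71 to SNRPN at 0.51. Of 9 further SR and SR-like proteins 3 fell and 2 rose, from SRSF4 at -0.55 to SRSF8 at 0.61. Of 9 U1-associated proteins 2 fell and 2 rose, from PRPF39 at -0.30 to PRPF40B at 0.50. Of 9 proteins of the minor spliceosome 2 fell and 1 rose, from PDCD7 at -0.58 to SCNM1 at 0.22. Of 6 SR protein kinases only SRPK1 was called, falling from 73.0 and 74.1 TPM to 42.4 and 42.6 TPM (log2 fold change -0.78), and CLK4 was the highest at 0.32 without a call. The shares that fell were 22.2% of the U1-associated and of the minor spliceosome proteins and 16.7% of the SR protein kinases. These lie near the 19.7% of all genes tested that fell.

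**Figure D4:**
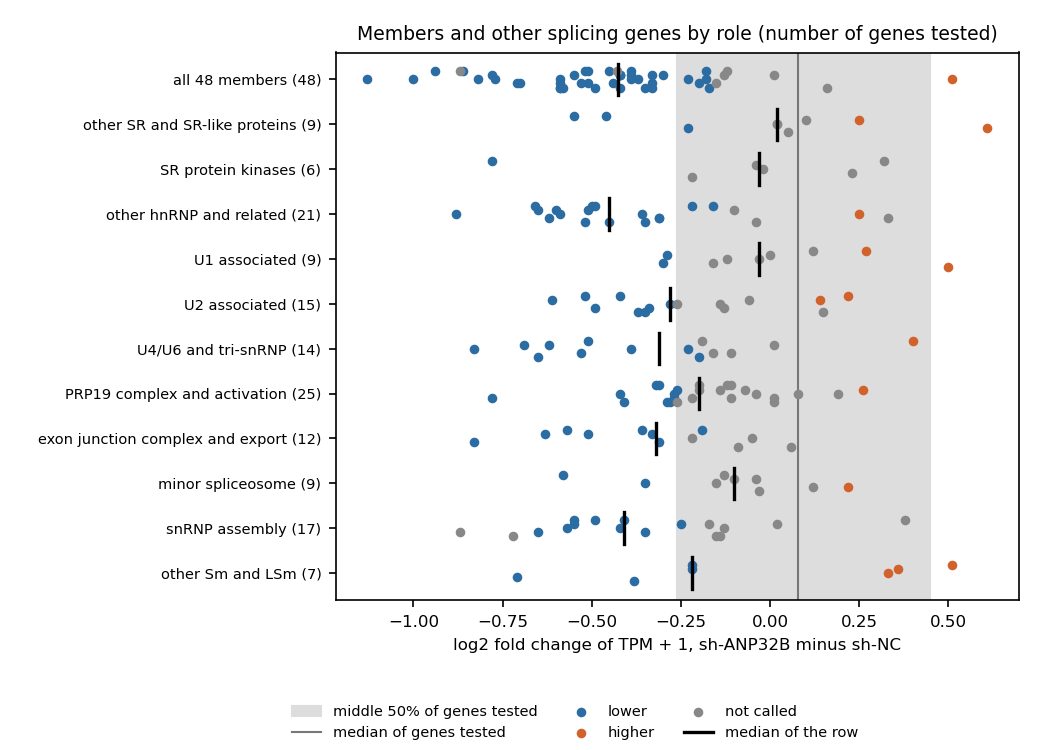
Log2 fold change of TPM + 1 (sh-ANP32B minus sh-NC) of the 48 genes and of 144 other splicing genes by role, with calls in color, the median of each row as a black bar, and the middle 50% and the median of all genes tested in gray. The row medians run from -0.45 for the other hnRNPs to 0.02 for the other SR and SR-like proteins, beside -0.43 for the 48 genes.

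Some features of the 48 genes that played no part in choosing them were set beside their changes, as descriptions across genes, which share libraries and are not independent. Across the 48 genes Spearman's rho between the log2 fold change and the length of the canonical transcript was 0.38, against -0.05 over the 144 other splicing genes and 0.05 over 11366 protein-coding genes tested. The 10 genes with transcripts under 1000 bases, among them SNRPD2, SNRPF, SNRPG, LSM2 and LSM7, all fell, with a median of -0.56, the 20 genes from 1000 to below 3000 bases had a median of -0.43, and the 18 longer ones a median of -0.38. For protein-coding genes under 1000 bases the median was -0.06 and 33.8% fell. The mean level of the 48 genes ranged from 11.7 to 847 TPM. Of the 8024 protein-coding genes in that range 31.7% fell, with a median of -0.01. Reads can also be shared with other annotated genes: 22 of the 48 genes had at least 1 pseudogene named after them, 7 shared exonic bases with a gene on the same strand and 16 with one on the opposite strand. SNRPG (20), SNRPC (18) and SNRPE (10) had the most named pseudogenes after HNRNPA1. The largest exonic overlaps were those of HNRNPU, 3502 bases with the opposite-strand COX20, and SRSF1, 1890 bases with a same-strand gene (ENSG00000266086). SRSF2 shares 823 bases with the opposite-strand MFSD11. COX20 had a log2 fold change of 0.64 and MFSD11 of -0.08. The 16 genes with none of these features included 11 that fell and had a median of -0.41, where 19.7% of all genes tested fell. They still include U2AF1, whose near-identical copy U2AF1L5 is not counted by these features.

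Promoter windows (250 bases before and 50 bases after a start site, RefSeq, GRCh38.p14) were found for 42 of the 48 genes and not for PRPF3, LSM6, SRSF2, SNRPD1, SF3B3 and HNRNPA1. The letters CCGGAAG, the core bound by ETS factors, were searched on both strands and stood in windows of 19 of the 42 genes (45.2%), of 35.7% of the other splicing genes with a window, of 22.9% of all genes tested with a window and of 12.2% of all genes with a window. The E-box CACGTG stood in windows of 2 of the 42, SF3B1 and EFTUD2 (4.76%). It stood in those of 15.9% of the other splicing genes, 12.9% of genes tested and 8.77% of all genes with a window. CCAAT stood in windows of 40.5% of the genes, against 42.6% of genes tested and 39.7% of all genes with a window. For GGGCGG the shares were 64.3%, 75.5% and 48.3%. The median log2 fold change was -0.39 with and -0.43 without CCGGAAG. The stretches below come from 3 genes that fell beyond 0.5, 2 tri-snRNP genes with small negative fold changes, and SF3B1. Each lies upstream of a RefSeq start site, with CCGGAAG (or its reverse complement) or, for SF3B1, CACGTG in capitals. They are written 5′ to 3′ on the strand of the gene, outside the annotated exons of protein-coding genes, at chr6:34757255-34757344 (plus) for SNRPC, chr15:101295312-101295401 (minus) for SNRPA1, chr2:70293459-70293548 (minus) for SNRPG, chr2:96305547-96305636 (minus) for SNRNP200, chr20:63980986-63981075 (plus) for PRPF6 and chr2:197435094-197435183 (minus) for SF3B1. In SNRPC the letters overlap with their own reverse complement. The stretches of SNRPG and SNRNP200 lie inside the annotated spans of these genes (chr2:70281362-70293740 and chr2:96274338-96321271), before a start site within the gene.
SNRPC: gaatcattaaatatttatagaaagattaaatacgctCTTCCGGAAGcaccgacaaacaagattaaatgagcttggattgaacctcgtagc
SNRPA1: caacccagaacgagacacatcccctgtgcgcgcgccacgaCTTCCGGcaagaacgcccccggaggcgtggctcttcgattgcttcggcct
SNRPG: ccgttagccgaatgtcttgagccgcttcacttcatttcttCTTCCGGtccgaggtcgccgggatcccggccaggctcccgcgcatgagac
SNRNP200: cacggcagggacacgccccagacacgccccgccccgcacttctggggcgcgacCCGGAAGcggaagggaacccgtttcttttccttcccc
PRPF6: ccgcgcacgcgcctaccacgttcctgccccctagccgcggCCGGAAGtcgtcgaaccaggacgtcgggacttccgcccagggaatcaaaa
SF3B1: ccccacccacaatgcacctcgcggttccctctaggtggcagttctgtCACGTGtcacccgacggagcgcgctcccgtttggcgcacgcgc
The same CCGGAAG core stood before a start site of SNRPC, SNRPA1 and SNRPG, which fell by 0.51 to 0.55 on the log2 scale. It also stood before a start site of SNRNP200 and PRPF6, with log2 fold changes of -0.17 and -0.12. A match of letters does not show that a factor binds there, and no binding data were analysed here.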

How the data were processed

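RNA from MV4-11 cells was extracted with Trizol and sequenced from TruSeq libraries. According to the submitters' processing notes, reads were aligned with HISAT2 (v2.0.5) to hg38. The authors deposited 1 TPM value per gene for each library. This unit was read from the totals, which lay between 997271 and 998546 in all 4 libraries, and the quantifier, annotation and strand setting are not given in the sources used here. The lowest mean of a listed gene was 0.5 TPM. Mitochondrially encoded genes held 15.4% to 17.6% of the TPM.

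Gene identifiers were matched to GENCODE v44 symbols and positions (17290 of 18885). Genes that reached 1 TPM in 2 or more libraries were tested with limma (v3.58.1, R v4.3.3; lmFit, eBayes with trend) on log2(TPM + 1), sh-ANP32B against sh-NC, without covariates, which stands in for the DESeq2 test of the study since TPM are not counts. Fold changes on this scale understate the change of low genes. P-values were adjusted by Benjamini-Hochberg over all genes tested. The 48 genes, the other splicing genes and the marker lists were chosen with earlier results of these data known. All 48 genes were counted, and those given in every library are those called beyond 0.5, the lowest and highest of each role and those nearest to 0.5. LSM4, SF3B4, PRPF4, PRPF6, PRPF8, SNRNP200 and EFTUD2 were added to these after their values were seen. Of the other splicing genes, the lowest and highest of each role and those called beyond 0.5 are named, and LSM1, PRMT5, HNRNPH2, RBM39 and SMN2 were named after their values were seen or as relatives of a described gene. Tables and plots were made with Python 3.11.15, and the test was tried on simulated data. The alternatives were a replicate block, other filters, a pseudocount of 0.1, quantile and median-of-ratios scaling, TPM without mitochondrial genes, the limits of the study, a fold limit and each library left out.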

Additional observations from a re-analysis of the deposited data

How the results depend on the processing

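SF3B1 was the single gene of the 48 called higher in every fit. The count of 40 lower genes was 38 with the replicate block, 39 after quantile normalization, 42 after median-of-ratios scaling, 38 without mitochondrial genes and 37 to 38 with single libraries left out, where a lone library was assumed to vary like the others. It was 19 with the fold limit of 0.5 or with the limits of the study (that fold limit with an unadjusted p below 0.05), since fewer genes pass a fold limit. It was 39 without PRPF31, LSM4 and LSM2, a choice made after seeing the data. The median of -0.43 was -0.53 after median-of-ratios scaling, -0.40 without mitochondrial genes and between -0.44 and -0.41 with single libraries left out. Which genes lie beyond 0.5 also varied. In at least 1 alternative fit SNRPG (-0.43), SNRPC (-0.44), SNRPA1 and SF3B3 (both -0.47), SRSF3 (-0.48) and SNRPD2 (-0.49) came inside that limit. In the other direction SRSF7 (-0.59), U2AF1 (-0.58), SRSF1, SRSF2, HNRNPU, LSM3, LSM4 and PRPF4 passed it in at least 1 fit. The 73 other splicing genes that fell numbered 30 with the fold limit, 32 with the limits of the study, and 56 to 67 with single libraries left out. The 13 that rose numbered 5 after median-of-ratios scaling, 3 with either fold limit, and 7 to 9 with single libraries left out (7 without sh-NC replicate 2 and 8 without sh-ANP32B replicate 1). Some settings raised these counts. The 73 became 89 after median-of-ratios scaling and 75 after quantile normalization, and the 13 became 15 without mitochondrial genes. SNRPN kept its call after median-of-ratios scaling (0.41), and PRPF40B lost it (0.41; adjusted p 0.0679 in limma), as it did after quantile normalization (0.36; 0.0996) and with the replicate block (0.074). Among all genes tested, the share of calls that were lower was 43.1%, 52.7% after quantile normalization and 54.0% after median-of-ratios scaling, and the median log2 fold change moved from 0.08 to -0.04 and -0.00.

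Of the 48 genes, 47 kept their sign in 11 alternative fits and 37 also kept their side of the threshold. PRPF3 changed sign to -0.08 after median-of-ratios scaling (adjusted p 0.172 in limma). Besides the 3 U5 genes, calls were lost for SNRNP70 without sh-NC replicate 2 or sh-ANP32B replicate 1 (adjusted p 0.0702 and 0.0567 in limma) and after quantile normalization (-0.10; 0.0688), for LSM3 without sh-NC replicate 1 or sh-ANP32B replicate 2 (0.0609 and 0.0523), and for SF3B6 without replicate 1 of either group (0.0624 and 0.0534). Those of LSM4 and PRPF31 depended on single libraries as given above, EFTUD2 and SNRNP200 were not called without mitochondrial genes, and PRPF6 and SF3B4 were called after median-of-ratios scaling. The deviations of same-numbered libraries had a correlation of -0.0232 across genes. No shared effect of the replicate number was seen, but this cannot show whether same-numbered libraries were prepared together. With the block, EFTUD2 and SNRNP200 lost their calls (adjusted p 0.0666 and 0.0555 in limma) and 70 other splicing genes were lower. The number of libraries, 2 per group, and the unknown depth limit the precision.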
